A study of Mus musculus with 15 samples.

Results

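In sorted cells of the embryonic mouse thalamus, the difference in expression between red and green cells was measured at 2 stages, embryonic day 18.5 (E18.5) and E14.5, and the 2 differences were set against each other. For each gene, the stage difference is the red-green difference at E18.5 minus the red-green difference at E14.5, on the log2 scale. Its estimate rests on 12 of the 15 arrays of the series, 3 biological replicates for each of the 4 groups. The remaining arrays, of double-labelled E18.5 cells, enter only the estimate of spread behind the SEs, intervals and p-values. Of 16635 genes tested, 26 gained a red-green difference, 134 lost one, 5 reversed it and 17 kept it.

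The groups were E18.5 red, E18.5 green, E14.5 red and E14.5 green cells, isolated from thalamus by fluorescence-activated sorting. Every embryo was Gbx2CreER-IRES-EGFP/+::R26lsl-tdTomato/+ on a C57BL/6 background, so all groups shared 1 Gbx2 allele that carried CreER and EGFP. Tamoxifen, 4 mg a dam, was given on E9 where embryos were taken at E18.5, but on E9.5 where they were taken at E14.5, so stage and the day of tamoxifen cannot be told apart. The labels give neither the gates nor whether litters were pooled. The series holds arrays of a double-labelled population for E18.5 alone, which enter no comparison here beyond the estimate of spread. Whether cells with both labels were left out of the red and green sorts at each stage is not stated. A difference between stages and a difference in sorting therefore cannot be told apart.

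Gbx2 is a homeodomain transcription factor of differentiating thalamic neurons. In this double reporter, EGFP (green) follows current activity of the Gbx2 locus, whereas tdTomato (red) permanently marks cells, and their descendants, in which CreER was active around the time of tamoxifen. Thalamic neurons leave the cycle in a sequence over days, settle into nuclei and then mature into mostly glutamatergic relay neurons. The habenula lies dorsally beside the thalamus and expresses a distinctive set of nicotinic receptor subunits.

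Array means lay between 6.17 and 6.19 at E18.5 and between 5.63 and 5.65 at E14.5, all on the log2 scale. The median gene stood 0.60 higher at E18.5 in red cells and 0.61 higher in green cells, and a shift common to both colours cancels in the stage difference. The median SD between arrays was 0.20 in E18.5 red, 0.12 in E18.5 green, 0.12 in E14.5 red and 0.09 in E14.5 green cells. E18.5 red replicate 1 had a narrow range, with an SD over all its values of 1.34, against 1.44 and 1.45 in its group mates. Members of the list of thalamic transcription factors averaged 7.57 to 7.65 in E18.5 red, 7.87 to 7.95 in E18.5 green, 7.30 to 7.41 in E14.5 red and 7.44 to 7.49 in E14.5 green arrays. The list of cortical excitatory neuron genes averaged 5.80 to 5.91, 5.78 to 5.89, 5.50 to 5.73 and 5.51 to 5.57 in the same order of groups.

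More genes passed the adjusted threshold between the colours early than late. At E18.5, 102 genes passed an adjusted p of 0.05, with 44 higher and 58 lower in red, which is 0.613% of the genes tested (0.265% higher and 0.349% lower). At E14.5, 586 genes passed, with 314 higher and 272 lower in red, which is 3.52% (1.89% higher and 1.64% lower). Only 22 genes passed at both stages, 21.6% of the E18.5 calls and 3.75% of the E14.5 calls, and 17 of them had the same direction. The stages were closer at an unadjusted p of 0.05 in limma's test, with 1666 genes (10%) at E18.5 and 1983 (11.9%) at E14.5. The SD of the red-green difference over all genes tested was 0.28 at E18.5 and 0.29 at E14.5. Adjustment was made for each stage apart, so the same unadjusted p could pass at 1 stage and not at the other.

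The stage difference itself passed for 175 genes, 91 above 0 and 84 below 0. That is 1.05% of the genes tested, 0.547% above and 0.505% below 0. At an unadjusted p of 0.05, 1490 genes passed. Genes were called kept when they passed at both stages in 1 direction and the stage difference did not pass (17 genes, 0.102%). They were called gained (26, 0.156%) or lost (134, 0.806%) when the stage difference passed and the red-green difference passed at E18.5 alone or at E14.5 alone. They were called reversed (5, 0.0301%) when it passed at both stages with opposite signs and the stage difference passed too. In the remaining 10 genes the stage difference passed but neither stage did alone. No gene passed all 3 tests in 1 direction, so none was called changed in size alone. Since the classes use the adjusted calls at each stage, the counts of gained and lost genes carry the unequal numbers of those calls.

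**Figure D1:**
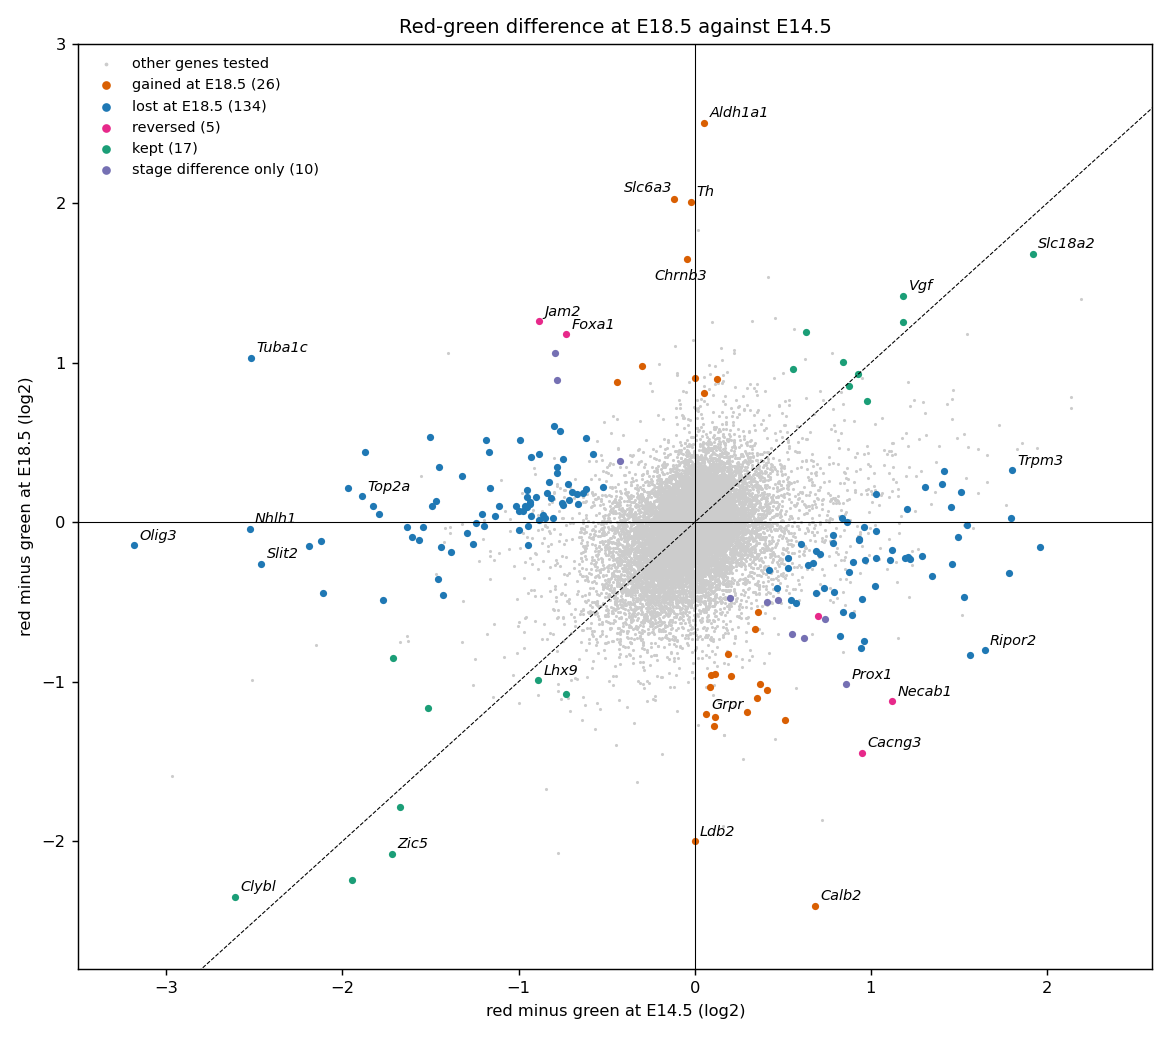
Red minus green difference of each tested gene at E18.5 (vertical axis, log2) against the same difference at E14.5 (horizontal axis, log2), coloured by class, with a dashed line of equal difference. The 26 gained genes lie along the vertical axis, the 134 lost genes along the horizontal axis, and the 17 kept genes at the upper right and lower left.

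The largest gains in red cells were genes of the dopamine system. Th, tyrosine hydroxylase, which makes the precursor of dopamine, gave 8.13, 8.16 and 7.85 in E18.5 red arrays and 5.98, 5.93 and 6.19 in E18.5 green arrays, against 5.14, 5.11 and 5.01 in E14.5 red arrays and 5.16, 5.09 and 5.08 in E14.5 green arrays. Every E18.5 red array was high, and the colours overlapped at E14.5. The stage difference of Th was 2.03 ± 0.15 (SE, n = 3 arrays in each of 4 groups), with an adjusted p of 4e-05. In these sorted pools, a larger share of cells with the transcript and more transcript per cell cannot be told apart.

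Slc6a3, the plasma membrane dopamine transporter, gave 7.79, 8.18 and 7.71 in E18.5 red arrays and 5.90, 5.85 and 5.86 in E18.5 green arrays, against 5.25, 5.04 and 4.79 in E14.5 red arrays and 5.05, 5.22 and 5.16 in E14.5 green arrays. The groups were apart at E18.5 and overlapped at E14.5, with a stage difference of 2.14 ± 0.20 (adjusted p 0.00017). Aldh1a1, a retinaldehyde dehydrogenase present in many dopamine neurons, gave 9.42, 8.54 and 9.02 in E18.5 red arrays and 6.31, 6.35 and 6.81 in E18.5 green arrays, against 5.37, 5.62 and 5.38 in E14.5 red arrays and 5.53, 5.38 and 5.29 in E14.5 green arrays. Its difference was 5.68-fold at E18.5 and 1.04-fold at E14.5, and the stage difference was 2.45 ± 0.28 (adjusted p 0.0006).

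Slc18a2, the vesicular monoamine transporter, had a red-green difference that already passed at E14.5. It gave 9.67, 10.29 and 10.11 in E18.5 red arrays and 7.97, 8.51 and 8.54 in E18.5 green arrays, against 10.14, 9.91 and 9.88 in E14.5 red arrays and 8.95, 7.82 and 7.39 in E14.5 green arrays. Red exceeded green in every array at both stages, by 3.21-fold at E18.5 (adjusted p 0.026) and 3.78-fold at E14.5 (adjusted p 0.0034). The E18.5 call held in 7 of the 12 fits that left out 1 array. Its stage difference was -0.24, with a 95% interval from -1.21 to 0.74, so a change of over 1 log2 unit is within that interval.

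Of the 24 tested members of the list of dopaminergic and monoaminergic genes, the stage difference passed above 0 in 5 (Th, Slc6a3, Aldh1a1, Foxa1 and Ebf3) and below 0 in 1, Drd2. The shares over all genes tested were 0.547% above and 0.505% below 0. The median stage difference of the list was 0.42, against -0.01 over all genes. At E18.5, 8 members were higher and 0 lower in red, against 0.265% higher and 0.349% lower over all genes. At E14.5, 2 were higher and 3 lower, against 1.89% higher and 1.64% lower over all genes. Drd2, a dopamine receptor singled out after its values were seen, averaged 6.87 in E18.5 red and 7.66 in E18.5 green cells, against 6.20 in E14.5 red and 5.26 in E14.5 green cells (stage difference -1.74, adjusted p 0.0045).

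The cyclic AMP response element (CRE), written TGACGTCA, is an element through which cyclic AMP and calcium signals reach genes, and in rodents it is known from the Th promoter. The promoter windows of Th, whose difference was gained, and Slc18a2, whose difference was kept, are shown because both hold it. They run 5′ to 3′ on the gene's strand, from 250 bases before to 50 after the start, with the CRE in capitals (RefSeq, GRCm38.p6). Th lies at chr7:142899946-142900245 on the minus strand, and Slc18a2 at chr19:59260628-59260927 on the plus strand.
Th: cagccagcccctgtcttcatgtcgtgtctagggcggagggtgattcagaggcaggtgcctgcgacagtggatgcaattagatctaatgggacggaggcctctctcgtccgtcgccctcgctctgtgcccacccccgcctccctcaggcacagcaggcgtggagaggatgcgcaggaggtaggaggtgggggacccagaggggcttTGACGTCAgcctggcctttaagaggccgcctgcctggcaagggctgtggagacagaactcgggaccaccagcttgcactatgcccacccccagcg
Slc18a2: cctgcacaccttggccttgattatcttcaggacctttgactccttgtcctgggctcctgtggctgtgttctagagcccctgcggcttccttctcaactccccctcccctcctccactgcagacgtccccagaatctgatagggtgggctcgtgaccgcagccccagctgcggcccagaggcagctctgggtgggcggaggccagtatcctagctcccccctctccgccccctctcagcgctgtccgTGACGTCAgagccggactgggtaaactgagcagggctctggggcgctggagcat

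The match begins 45 bases before the start in Th and 4 bases before it in Slc18a2. Both strands were searched, although this motif reads the same on each. It occurred in 1.79% of 32851 promoter windows and in 2 of the 20 windows of tested members of the dopaminergic and monoaminergic list. A match is a description of the letters and not a site of binding.

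The other genes gained in red included 2 nicotinic acetylcholine receptor subunits. Chrnb3 gave 6.84, 6.96 and 6.52 in E18.5 red arrays and 5.07, 5.23 and 5.05 in E18.5 green arrays, against 4.54, 4.51 and 4.51 in E14.5 red arrays and 4.53, 4.57 and 4.60 in E14.5 green arrays. Only E18.5 red arrays were high, and the stage difference was 1.70 ± 0.20 (adjusted p 0.0006). Chrna6, whose product assembles with that of Chrnb3, had a stage difference of 0.76 ± 0.15 (adjusted p 0.02). These were the 2 of 9 tested nicotinic subunits past the threshold, both above 0, against 0.547% above 0 over all genes, and the list median was 0.07.

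Gsg1l, an auxiliary subunit of AMPA receptors, had a stage difference of 1.28 ± 0.20 (adjusted p 0.0048). Ebf3, an early B-cell factor family transcription factor, gave 7.18, 6.72 and 6.93 in E18.5 red arrays and 5.94, 6.04 and 6.21 in E18.5 green arrays, against 6.15, 5.79 and 5.72 in E14.5 red arrays and 5.95, 6.51 and 6.52 in E14.5 green arrays. Its stage difference was 1.32 ± 0.24 (adjusted p 0.016). The last 2 genes gained in red were Inpp4b, an inositol polyphosphate phosphatase (0.77, adjusted p 0.019), and Amotl1, an angiomotin family protein of cell junctions (0.90, adjusted p 0.038). The calls of Ebf3, Chrna6, Inpp4b and Amotl1 held in 8, 6, 9 and 4 of 12 fits that each left out 1 array, whereas those of Th, Slc6a3, Aldh1a1, Chrnb3 and Gsg1l held in all 12.

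In 5 of these 9 genes, every E14.5 array lay under that array's median signal. With signals that low, an E14.5 difference in either direction may go unmeasured.

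The other 17 gained genes became lower in red, led by Calb2. In 16 of the 17 the E14.5 estimate had the opposite sign, though none of these E14.5 differences passed. Calb2 encodes the calcium-binding protein calretinin, and gave 7.18, 7.72 and 7.67 in E18.5 red arrays and 10.24, 9.97 and 9.60 in E18.5 green arrays, against 5.98, 5.95 and 6.52 in E14.5 red arrays and 5.60, 5.36 and 5.44 in E14.5 green arrays. At E18.5 every green array exceeded every red one, by 5.3-fold on average (adjusted p 2.2e-05). At E14.5 the order was the opposite, with every red array above every green one, but that difference did not pass (0.69, adjusted p 0.071). The stage difference, -3.09 ± 0.27, was the lowest of all genes tested (adjusted p 9.9e-05).

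Ldb2, a cofactor of LIM-homeodomain factors, gave 7.89, 9.10 and 8.17 in E18.5 red arrays and 10.32, 10.62 and 10.21 in E18.5 green arrays, against 8.02, 7.99 and 8.03 in E14.5 red arrays and 8.01, 8.07 and 7.96 in E14.5 green arrays. The 6 E14.5 arrays lay within 0.11 of each other, and the E18.5 groups did not overlap. Its stage difference was -2.0 ± 0.35 (adjusted p 0.012).

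Genes of bombesin-type peptide signalling were among the gained genes lower in red. Grpr, the gastrin-releasing peptide receptor, gave 6.08, 5.64 and 5.77 in E18.5 red arrays and 7.26, 6.87 and 6.97 in E18.5 green arrays, against 4.81, 4.71 and 4.73 in E14.5 red arrays and 4.64, 4.67 and 4.74 in E14.5 green arrays (stage difference -1.27 ± 0.18, adjusted p 0.0023). Nmbr, the neuromedin B receptor, had a stage difference of -1.39 ± 0.27 (adjusted p 0.024), and Grp, the peptide itself, of -1.12 ± 0.25 (adjusted p 0.0497). The call of Grpr held in all 12 fits that left out 1 array, that of Nmbr in 5 and that of Grp in 1. They were the 3 of 37 tested neuropeptide and receptor genes past the threshold, all below 0, with a list median of -0.14. The share below 0 over all genes tested was 0.505%. Nmb, the peptide ligand of the neuromedin B receptor, had a stage difference of 0.13 (adjusted p 0.99).

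Syn2, also gained and lower in red, encodes synapsin II of synaptic vesicles, and gave 7.57, 7.51 and 7.35 in E18.5 red arrays and 8.69, 8.91 and 8.13 in E18.5 green arrays, against 5.28, 5.24 and 5.09 in E14.5 red arrays and 4.80, 4.86 and 4.89 in E14.5 green arrays (stage difference -1.45, adjusted p 0.031). Amph, the endocytic protein amphiphysin, had a stage difference of -1.46 (adjusted p 0.0038). Cntn3, a contactin of the cell surface, had -1.39 (adjusted p 0.0045), Tnr, which encodes the matrix protein tenascin-R, -1.49 (adjusted p 0.012), and Flrt1, a leucine-rich transmembrane protein, -1.17 (adjusted p 0.012). Khdrbs3, an RNA-binding splicing regulator, completed the named genes at -1.75 (adjusted p 0.017). The calls of Syn2 and Khdrbs3 held in 2 and 7 of the 12 fits that left out 1 array, and those of Amph, Cntn3, Tnr and Flrt1 in all 12. In 6 of the 17 gained genes lower in red, every E14.5 array lay under that array's median signal, which limits what could be measured there.

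**Figure D2:**
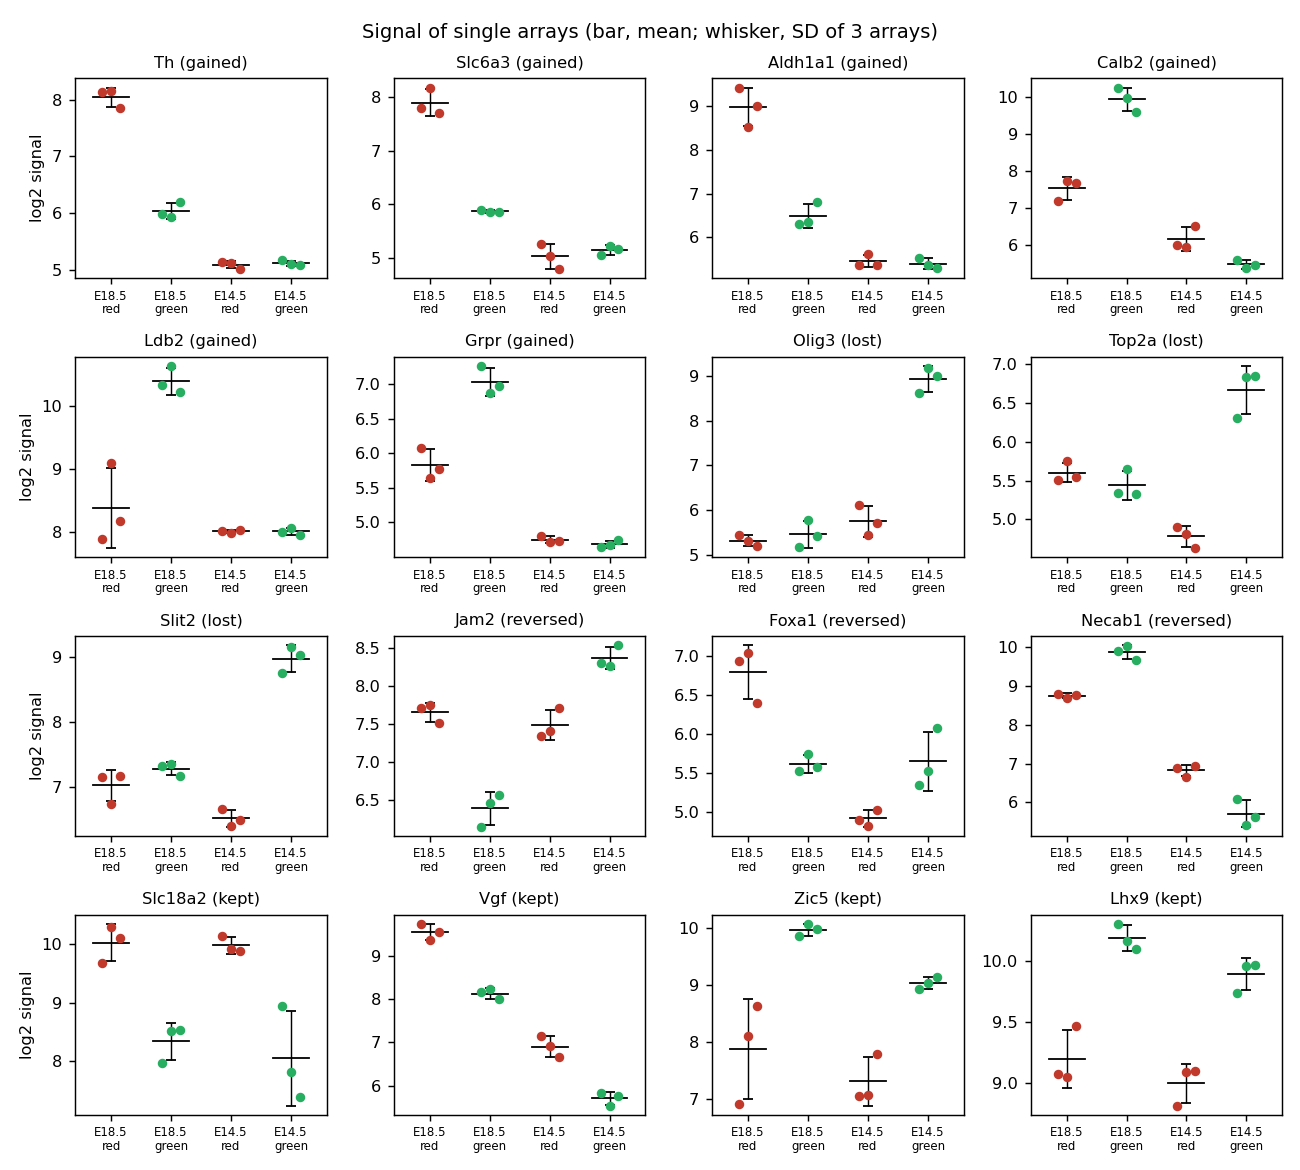
Log2 signal of each of the 12 arrays (points) for 16 genes, 1 panel a gene, with the 4 groups along the horizontal axis. Horizontal bars are the mean and whiskers the SD of 3 arrays. Each vertical axis has its own range and does not start at 0. In the panels of gained genes the E18.5 groups are far apart and the E14.5 groups closer, and in those of lost genes the E14.5 green arrays stand alone.

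Of the 134 genes that lost their difference, 77 had been lower and 57 higher in red at E14.5. This balance depended on the setting: without the narrow-range arrays the lost genes were 152 lower and 207 higher, and with the lowest 50% of genes left out they were 50 lower and 54 higher. The E18.5 estimate had the opposite sign in 101 of the 134, 55 of the 77 and 46 of the 57, against 6297 of all 16635 genes. Choosing genes by the stage difference favours opposite signs, and none of these E18.5 differences passed. Olig3, a basic helix-loop-helix factor of thalamic progenitors, gave 5.43, 5.31 and 5.19 in E18.5 red arrays and 5.17, 5.77 and 5.42 in E18.5 green arrays, against 6.11, 5.43 and 5.70 in E14.5 red arrays and 8.62, 9.18 and 9.00 in E14.5 green arrays. E14.5 green cells alone were high, 9.1-fold above E14.5 red cells (adjusted p 8.9e-07). At E18.5 the difference was -0.14, with a 95% interval from -0.55 to 0.26, and the stage difference was 3.04 ± 0.27 (adjusted p 9.9e-05).

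Nhlh1, a basic helix-loop-helix factor of newborn neurons, showed the same arrangement. It gave 4.98, 4.83 and 4.77 in E18.5 red arrays and 4.68, 4.96 and 5.06 in E18.5 green arrays, against 5.06, 4.57 and 5.03 in E14.5 red arrays and 6.90, 7.77 and 7.57 in E14.5 green arrays (stage difference 2.49 ± 0.29, adjusted p 0.0006). Pou3f2, a POU-domain factor of neural precursors and young neurons, had a stage difference of 2.32, and the noncoding RNA Pantr1 one of 2.18 (adjusted p 0.0006 for each). Barhl2, a homeodomain factor of the diencephalon, had 1.60 (adjusted p 0.0021), and Btg2, an antiproliferative gene of neurogenic divisions, had 2.04 (adjusted p 0.00046).

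Cell cycle genes were among the lost genes that had been lower in red. Top2a, DNA topoisomerase II alpha, gave 5.51, 5.75 and 5.55 in E18.5 red arrays and 5.34, 5.65 and 5.32 in E18.5 green arrays, against 4.90, 4.81 and 4.63 in E14.5 red arrays and 6.31, 6.84 and 6.85 in E14.5 green arrays (stage difference 2.05 ± 0.29, adjusted p 0.0023). Cdk1, the mitotic cyclin-dependent kinase, gave 5.11, 4.95 and 4.73 in E18.5 red arrays and 4.95 in each of the E18.5 green arrays, against 4.86, 4.96 and 4.98 in E14.5 red arrays and 5.88, 6.32 and 6.19 in E14.5 green arrays (stage difference 1.18 ± 0.19, adjusted p 0.0078). In both genes E14.5 green arrays lay above all 9 others.

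Ube2c, the ubiquitin-conjugating enzyme of the anaphase-promoting complex, had a stage difference of 2.01 (adjusted p 0.00034), Mki67, the proliferation antigen Ki-67, one of 1.61 (adjusted p 0.012), and Ccnd2, cyclin D2, one of 1.28 (adjusted p 0.014). Of the 27 tested members of the cell cycle list, 6 passed above 0 and 0 below, and the list median was 0.50 against -0.01 over all genes. The share above 0 over all genes tested was 0.547%. At E14.5, 13 of the 27 were lower in red and 0 higher, against 1.64% lower and 1.89% higher over all genes. At E18.5, limma called 0 of the 27 members, and 3 had an unadjusted p under 0.05. Over all genes tested, 0.613% were called at E18.5 and 10% had an unadjusted p under 0.05. The whole list averaged 5.85 to 5.93 in E18.5 red arrays and 5.88 to 5.94 in E18.5 green arrays, against 5.46 to 5.59 in E14.5 red arrays and 5.94 to 6.16 in E14.5 green arrays. The Mki67 call ended without E14.5 green replicate 3, and that of Ccnd2 without E14.5 green replicate 2 or 3. What part cells in the cycle had in the other lost genes was not tested.

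The promoter windows of Cdk1, Top2a and Ube2c are shown because genes of the late cell cycle are known for a shared promoter layout, CCAAT boxes together with the cell cycle genes homology region (CHR). In capitals are CHR matches, written TTTGAA, and CCAAT matches, on either strand, so that TTCAAA and ATTGG are matches on the opposite strand. In Ube2c a pair of CCAAT matches on opposite strands overlap. Windows run from 250 bases before to 50 after the start (RefSeq, GRCm38.p6): Cdk1 at chr10:69352863-69353162, minus strand, Top2a at chr11:99024140-99024439, minus strand, and Ube2c at chr2:164769679-164769978, plus strand.
Cdk1: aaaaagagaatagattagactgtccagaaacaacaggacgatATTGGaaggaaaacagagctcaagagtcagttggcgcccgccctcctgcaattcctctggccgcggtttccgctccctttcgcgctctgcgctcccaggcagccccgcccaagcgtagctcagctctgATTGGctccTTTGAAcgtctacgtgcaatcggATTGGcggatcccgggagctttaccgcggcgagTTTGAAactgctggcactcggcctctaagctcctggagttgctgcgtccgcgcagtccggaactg
Top2a: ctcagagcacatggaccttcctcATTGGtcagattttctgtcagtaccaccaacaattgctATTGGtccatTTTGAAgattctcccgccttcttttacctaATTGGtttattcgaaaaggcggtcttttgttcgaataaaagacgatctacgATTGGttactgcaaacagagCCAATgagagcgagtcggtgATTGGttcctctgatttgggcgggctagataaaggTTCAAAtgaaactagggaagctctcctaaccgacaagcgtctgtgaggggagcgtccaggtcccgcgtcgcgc
Ube2c: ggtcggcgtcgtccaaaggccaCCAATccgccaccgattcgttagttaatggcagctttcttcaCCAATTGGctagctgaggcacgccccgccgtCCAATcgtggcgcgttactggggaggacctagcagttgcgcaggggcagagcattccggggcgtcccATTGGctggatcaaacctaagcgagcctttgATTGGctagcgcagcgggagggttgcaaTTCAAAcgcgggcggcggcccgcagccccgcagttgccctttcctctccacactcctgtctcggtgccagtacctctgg

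A CHR match nearest the start lay 15 bases before it in Cdk1, 23 in Top2a and 29 in Ube2c. CHR matches occurred in 10 of the 21 windows of tested cell cycle members and in 17.9% of all 32851 windows. CCAAT matches occurred in 17 of these 21 windows and in 37.4% of all. These shares describe the letters in the windows, and neither motif was tested for binding.

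Guidance and adhesion genes were also among those lost. Slit2, a secreted axon repellent, gave 7.15, 6.74 and 7.17 in E18.5 red arrays and 7.32, 7.35 and 7.17 in E18.5 green arrays, against 6.66, 6.40 and 6.49 in E14.5 red arrays and 8.75, 9.15 and 9.03 in E14.5 green arrays. E14.5 green arrays again stood above the rest (stage difference 2.20 ± 0.22, adjusted p 0.00026). Unc5c, a netrin receptor that mediates repulsion, had a stage difference of 1.15 (adjusted p 0.0072), and Ntn4, netrin 4, one of 0.85 (adjusted p 0.029, passed in 4 of 12 fits that left out 1 array). Of 50 tested guidance genes, 4 passed above 0 (Slit2, Unc5c, Ntn4 and, outside the naming rule, Slit1) and 2 below (Flrt1 and, outside the rule, Flrt2), with a list median of -0.10. Shares over all genes tested were 0.547% above and 0.505% below 0.

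Tuba1c, an alpha tubulin, had the highest stage difference of all genes tested, 3.55, but also a large SE of 0.76. It gave 8.37, 7.20 and 7.52 in E18.5 red arrays and 7.32, 5.92 and 6.75 in E18.5 green arrays, against 7.31, 7.42 and 7.75 in E14.5 red arrays and 10.06, 9.81 and 10.18 in E14.5 green arrays. The E18.5 groups overlapped and varied within each colour, and the call (adjusted p 0.039) held in 2 of the 12 fits that left out 1 array. A second, dimmer transcript cluster of the gene gave a stage difference of 3.10. Alpha tubulin genes are near-identical copies, so the signal of Tuba1c may include other members of the family. Abcd2, a peroxisomal fatty acid transporter (2.04, adjusted p 0.0001), and Ypel2, a member of the yippee-like family (1.66, adjusted p 0.0046), were also lost genes that had been lower in red, as was Prom1, the membrane protein prominin 1 of neural progenitors (1.06, adjusted p 0.017, passed in 7 of those 12 fits).

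In 30 of these 77 genes, every E18.5 array lay under that array's median signal, and in 0 of 77 did every E14.5 array. For those 30 genes, a small E18.5 difference may go unmeasured.

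The other 57 lost genes had been higher in red at E14.5, and several of those named encode proteins of synapses and excitability. Rbfox1, a neuronal splicing factor, gave 9.10, 9.95 and 9.61 in E18.5 red arrays and 9.58, 9.52 and 9.46 in E18.5 green arrays, against 8.63, 8.41 and 8.23 in E14.5 red arrays and 6.97, 6.39 and 6.51 in E14.5 green arrays. The colours were 3.48-fold apart at E14.5 (adjusted p 0.00013) and overlapped at E18.5 (1.02-fold, adjusted p 0.96). The stage difference was -1.77 ± 0.27 (adjusted p 0.0046).

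Lrfn5, a postsynaptic adhesion molecule, gave 8.09, 8.46 and 8.61 in E18.5 red arrays and 8.76, 8.66 and 8.68 in E18.5 green arrays, against 7.34, 6.94 and 7.07 in E14.5 red arrays and 5.74, 5.12 and 5.14 in E14.5 green arrays (stage difference -2.10 ± 0.27, adjusted p 0.0012). Grm8, a presynaptic metabotropic glutamate receptor, gave 6.88, 7.41 and 7.31 in E18.5 red arrays and 7.68, 7.63 and 7.69 in E18.5 green arrays, against 7.62, 7.06 and 7.00 in E14.5 red arrays and 6.35, 5.42 and 5.32 in E14.5 green arrays (stage difference -2.0 ± 0.33, adjusted p 0.0085). In both genes the E14.5 green arrays were the lowest, with replicate 1 above its group mates, and at E18.5 the green arrays lay just above the red ones.

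Pclo, the presynaptic scaffold piccolo, gave 8.95, 8.75 and 8.94 in E18.5 red arrays and 9.09, 8.94 and 8.92 in E18.5 green arrays, against 7.51, 7.58 and 7.51 in E14.5 red arrays and 6.78, 6.39 and 6.62 in E14.5 green arrays (stage difference -1.04, adjusted p 0.012). Gabra2, a GABA-A receptor subunit, had a stage difference of -1.59 (adjusted p 0.013), Cacna1e, a voltage-gated calcium channel subunit, -1.42 (adjusted p 0.02), Trpm3, a cation channel, -1.48 (adjusted p 0.023), and Grin2b, an NMDA receptor subunit, -1.08 (adjusted p 0.042). The calls of Gabra2, Cacna1e and Trpm3 held in 11, 8 and 4 of the 12 fits that left out 1 array. The Grin2b call held in 2 of 12 fits that left out 1 array, and a second, dimmer transcript cluster of the gene gave -0.12. Cdh4, a classical cadherin, had -1.43 (adjusted p 0.0046) and -0.42 at its second cluster.

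Outside the synapse, Shtn1, which encodes the axon outgrowth protein shootin 1, had the smallest SE among the named lost genes higher in red (-1.32 ± 0.16, adjusted p 0.00097). Ripor2 gave 7.58, 7.68 and 7.98 in E18.5 red arrays and 8.67, 8.56 and 8.41 in E18.5 green arrays, against 7.65, 8.17 and 8.14 in E14.5 red arrays and 6.93, 5.90 and 6.19 in E14.5 green arrays (stage difference -2.45 ± 0.33, adjusted p 0.0019). The groups did not overlap at either stage and their order turned, but the E18.5 difference did not pass (adjusted p 0.22). Mast4, a microtubule-associated kinase, was arranged likewise (-2.39, adjusted p 0.0012, and -1.56 at a second, dimmer transcript cluster). Kitl, the ligand of the Kit receptor, had -2.11 (adjusted p 0.029), with a call that held in 4 of 12 fits that left out 1 array, and Ablim3, an actin-binding LIM protein, had -1.57 (adjusted p 0.0046).

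Of the 25 tested glutamatergic transmission genes, the stage difference passed below 0 in 3 (Cacng3, Grm8 and Grin2b) and above 0 in 1 (Gsg1l), with a list median of -0.50. At E14.5, 10 of the 25 were higher in red and 0 lower, and at E18.5, 1 was higher and 1 lower. The 26 tested genes of synaptic vesicles and release had 2 below 0 (Syn2 and Pclo), 0 above and a median of -0.32, with 7 higher and 0 lower in red at E14.5, and 0 higher and 1 lower at E18.5. The 39 tested ion channel genes had 2 below 0 (Cacna1e and Kcnd2), 0 above and a median of -0.19. In this list 8 members were higher and 1 lower in red at E14.5, and limma called 0 at E18.5, where 9 had an unadjusted p under 0.05. Among all genes tested, the stage difference passed above 0 in 0.547% and below 0 in 0.505%. At E14.5, 1.89% of them were higher and 1.64% lower in red. The shares at E18.5 were 0.265% higher and 0.349% lower, and 10% had an unadjusted p under 0.05 in limma's test.

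Hbb-y, an embryonic beta-like globin of primitive red blood cells, was a lost gene of another kind. It gave 5.31, 5.30 and 5.14 in E18.5 red arrays and 5.30, 5.06 and 5.10 in E18.5 green arrays, against 7.18, 6.21 and 6.43 in E14.5 red arrays and 5.12, 5.25 and 5.09 in E14.5 green arrays (stage difference -1.36 ± 0.26, adjusted p 0.022, passed in 7 of the 12 fits that left out 1 array). It was the 1 of 3 tested erythroid genes past the threshold. The 4 erythroid genes measured averaged 5.31 to 5.35 in E18.5 red arrays and 5.25 to 5.29 in E18.5 green arrays, against 5.10 to 5.30 in E14.5 red arrays and 4.71 to 4.79 in E14.5 green arrays. Hbb-bh1, another embryonic globin, fell under the filter at 4.42 in E14.5 red and 4.37 in E14.5 green cells, and what part red blood cells had in other E14.5 differences was not tested.

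Set against the median change of all genes between stages, the lost genes moved mainly in green cells. The 77 lost genes that had been lower in red had a median change from E14.5 to E18.5 of -0.22 in red cells and -1.47 in green cells. In green cells the change was below 0 in all 77, and it was the larger of the pair in 72. The 57 lost genes that had been higher in red had a median change of 0.27 in red and 1.53 in green cells, with the green change above 0 in 55 and the larger in 51. Over all genes tested, the green change was the larger in 9450 of 16635. It was also the larger in 507 of all 586 genes called at E14.5. Of these, 430 had a stage difference that did not pass, and the green change was the larger in 372. A larger green change was thus not particular to the lost genes. After joint quantile normalization of the arrays, the green change was still the larger in 123 of the 134 lost genes. These changes describe the members and were not tested, since their choice used the same values.

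The gained genes split by direction. The 9 that became higher in red had a median change of 1.65 in red cells and 0.00 in green cells. The 17 that became lower in red had 0.32 in red and 1.62 in green cells, and the green change was above 0 and the larger in all 17. Among the 9, Inpp4b had a change well above 0 in green cells too (1.88 in red and 1.09 in green cells).

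**Figure D3:**
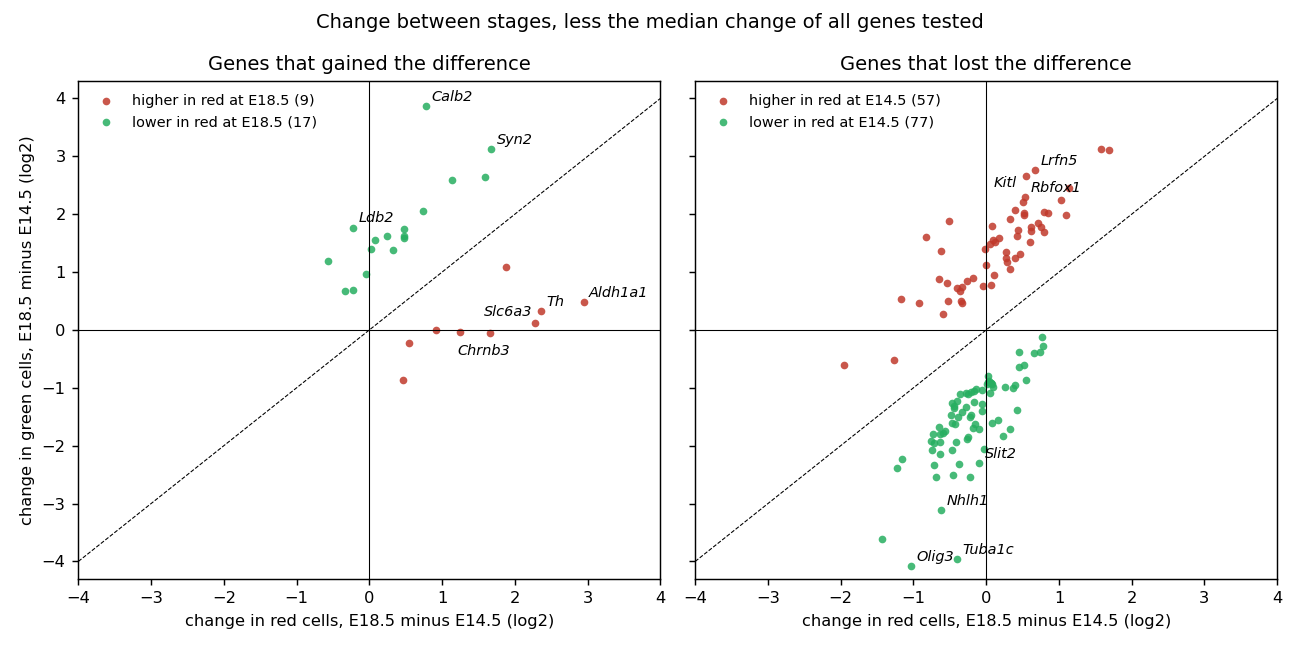
Change from E14.5 to E18.5 in green cells (vertical axis, log2) against the same change in red cells (horizontal axis, log2), each less the median change of all genes tested, for the 26 gained genes (left) and the 134 lost genes (right). The dashed line marks equal change. The 77 lost genes that had been lower in red all lie below 0 on the vertical axis, and the 9 gained genes higher in red all lie to the right of 0 on the horizontal axis.

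The 5 reversed genes passed at both stages with opposite signs. All 5 stayed reversed after joint quantile normalization, but only 2 did when each stage had its own weight. Without E14.5 red replicate 1, only 1 of the 5 did. Jam2, a junctional adhesion molecule, gave 7.71, 7.75 and 7.51 in E18.5 red arrays and 6.15, 6.46 and 6.57 in E18.5 green arrays, against 7.34, 7.41 and 7.71 in E14.5 red arrays and 8.30, 8.27 and 8.54 in E14.5 green arrays. Red cells were 2.4-fold higher at E18.5 (adjusted p 0.0052) and 1.84-fold lower at E14.5 (adjusted p 0.014, passed in 9 of the 12 fits that left out 1 array), and the green arrays moved more than the red ones (stage difference 2.15 ± 0.26, adjusted p 0.0008).

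Foxa1, a forkhead factor of ventral midbrain and diencephalic precursors, gave 6.94, 7.04 and 6.40 in E18.5 red arrays and 5.52, 5.74 and 5.58 in E18.5 green arrays, against 4.90, 4.82 and 5.03 in E14.5 red arrays and 5.35, 5.52 and 6.07 in E14.5 green arrays. Here the red arrays moved more than the green ones (stage difference 1.91 ± 0.26, adjusted p 0.0019). The E14.5 difference was near the threshold (adjusted p 0.041) and passed in 4 of the 12 fits that left out 1 array.

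Necab1, a neuronal calcium-binding protein, turned the other way. It gave 8.81, 8.69 and 8.76 in E18.5 red arrays and 9.91, 10.04 and 9.68 in E18.5 green arrays, against 6.89, 6.66 and 6.93 in E14.5 red arrays and 6.08, 5.42 and 5.62 in E14.5 green arrays. Its differences were nearly the same in size, 2.18-fold lower in red at E18.5 and 2.17-fold higher at E14.5, with a stage difference of -2.24 ± 0.23 (adjusted p 0.00026). Cacng3, an auxiliary AMPA receptor subunit, gave 7.78, 7.77 and 7.40 in E18.5 red arrays and 9.12, 9.27 and 8.91 in E18.5 green arrays, against 7.34, 6.81 and 7.01 in E14.5 red arrays and 6.27, 5.84 and 6.20 in E14.5 green arrays (stage difference -2.40 ± 0.30, adjusted p 0.00094). Its E14.5 call held in 8 of those 12 fits. Prkg1, a cyclic GMP-dependent protein kinase, had the smallest turn (-1.29, adjusted p 0.001), and its E18.5 difference passed in 5 of the 12 fits that left out 1 array.

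Of the 10 genes whose stage difference passed while neither stage did alone, the naming rule took Prox1 and Kcnd2. Prox1, a homeodomain factor, gave 9.01, 9.45 and 9.78 in E18.5 red arrays and 10.43, 10.55 and 10.30 in E18.5 green arrays, against 8.42, 8.84 and 9.07 in E14.5 red arrays and 8.32, 7.56 and 7.86 in E14.5 green arrays (stage difference -1.88 ± 0.36, adjusted p 0.02). Red and green arrays did not overlap at either stage, and their order turned. Kcnd2, a potassium channel subunit of A-type currents, had a stage difference of -1.34 (adjusted p 0.034). The calls held in 6 and 3 of the 12 fits that left out 1 array.

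The 17 kept genes included 9 higher and 8 lower in red. Vgf, a secreted neuropeptide precursor, gave 9.72, 9.36 and 9.55 in E18.5 red arrays and 8.15, 8.23 and 7.99 in E18.5 green arrays, against 7.14, 6.91 and 6.66 in E14.5 red arrays and 5.84, 5.55 and 5.77 in E14.5 green arrays. Its level was higher at E18.5 in both colours, and the difference was 2.68-fold at E18.5 (adjusted p 0.00028) and 2.28-fold at E14.5 (adjusted p 0.00031). The 95% interval of the stage difference ran from -0.20 to 0.67.

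Htr1b, a serotonin receptor, had a difference of 1.9-fold at both stages, and Hs6st3, a heparan sulfate sulfotransferase, 1.81-fold at E18.5 and 1.84-fold at E14.5. Their intervals for the stage difference ran from -0.52 to 0.52 and from -0.53 to 0.49. Zdhhc22, a palmitoyltransferase, was 2.39-fold higher in red at E18.5 and 2.27-fold at E14.5, and Vegfc, a vascular growth factor, 2.01-fold and 1.79-fold in the same order. Ebf1, an early B-cell factor, was 2.28-fold higher in red at E18.5 and 1.55-fold at E14.5, and its interval, 0.07 to 1.05, lay above 0 although the adjusted p was 0.42. Galnt14, a glycosyltransferase, was likewise at 1.94-fold and 1.47-fold, with an interval from 0.01 to 0.79. In the 12 fits that left out 1 array, the E18.5 call held in 7 for Htr1b, 5 for Hs6st3 and 3 for Vegfc, and the E14.5 call in 11, 10 and 7. Ebf1 and Galnt14 passed at E18.5 in all 12 but at E14.5 in 3 and 6, and Vgf and Zdhhc22 passed at both stages in all 12.

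Among the kept genes lower in red, Lhx9, a LIM-homeodomain factor of the dorsal thalamus, gave 9.08, 9.05 and 9.47 in E18.5 red arrays and 10.30, 10.16 and 10.10 in E18.5 green arrays, against 8.82, 9.09 and 9.10 in E14.5 red arrays and 9.74, 9.96 and 9.97 in E14.5 green arrays. Green exceeded red in every array at both stages, by 1.98-fold at E18.5 (adjusted p 0.0037) and 1.85-fold at E14.5 (adjusted p 0.0016), and the stage difference lay between -0.50 and 0.30. Zic5, a zinc finger factor, was 4.22-fold lower in red at E18.5 and 3.3-fold at E14.5, with a wide spread in E18.5 red arrays (6.92, 8.11 and 8.63).

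Nfib, a nuclear factor I protein, was 2.24-fold lower in red at E18.5 and 2.86-fold at E14.5, and Tle3, a Groucho-type corepressor, 2.11-fold and 1.66-fold in the same order. Shox2, a homeodomain factor, gave 6.56, 6.89 and 7.10 in E18.5 red arrays and 7.54, 7.92 and 7.62 in E18.5 green arrays, against 7.16, 7.13 and 6.95 in E14.5 red arrays and 8.55, 8.99 and 8.85 in E14.5 green arrays. Its stage difference of 0.87, interval 0.38 to 1.35, missed the threshold (adjusted p 0.096), so that it is counted as kept although the E18.5 difference was smaller, 1.8-fold against 3.28-fold at E14.5. The largest kept differences were those of Clybl, a mitochondrial lyase-like enzyme (5.09-fold lower in red at E18.5 and 6.12-fold at E14.5), and Nek7, a mitotic kinase family member (4.73-fold and 3.85-fold in the same order). Lhx9, Clybl and Nek7 passed at both stages in all 12 fits that left out 1 array. The E18.5 call held in 9 for Zic5, 8 for Nfib and 7 for Shox2, and the E14.5 call in 8 for Zic5 and 8 for Tle3.

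Gbx2, the gene whose locus carries EGFP and CreER, gave 6.44, 7.16 and 5.45 in E18.5 red arrays and 8.50, 8.55 and 8.23 in E18.5 green arrays, against 7.33, 7.28 and 7.30 in E14.5 red arrays and 7.88, 8.21 and 8.13 in E14.5 green arrays. Green exceeded red in every array at both stages, as the sort on EGFP from this locus favours. The difference was 4.21-fold at E18.5 (adjusted p 0.0052) and 1.71-fold at E14.5 (adjusted p 0.27), and the stage difference of -1.30, interval -2.21 to -0.39, did not pass (adjusted p 0.24). A second, dimmer transcript cluster gave -0.33. Among the 31 tested thalamic transcription factors, the stage difference passed above 0 in 1 (Ebf3) and below 0 in 2 (Ldb2 and Prox1), with a list median of -0.09. Shares over all genes tested were 0.547% above and 0.505% below 0.

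The classes leave out 54 genes called at E18.5 and 430 called at E14.5 whose stage difference did not pass, for which a change between stages was neither shown nor excluded. The differences had the same sign at both stages in 74.1% of these 54 and in 71.2% of these 430, against 62.1% of all genes tested. Choosing genes whose stage difference did not pass favours equal signs. Over all 102 genes called at E18.5 the share was 60.8%, and over all 586 called at E14.5 it was also 60.8%. Across genes, which are not independent replicates, Pearson's r between the E18.5 and the E14.5 differences was 0.29 over 16635 genes.

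**Figure D4:**
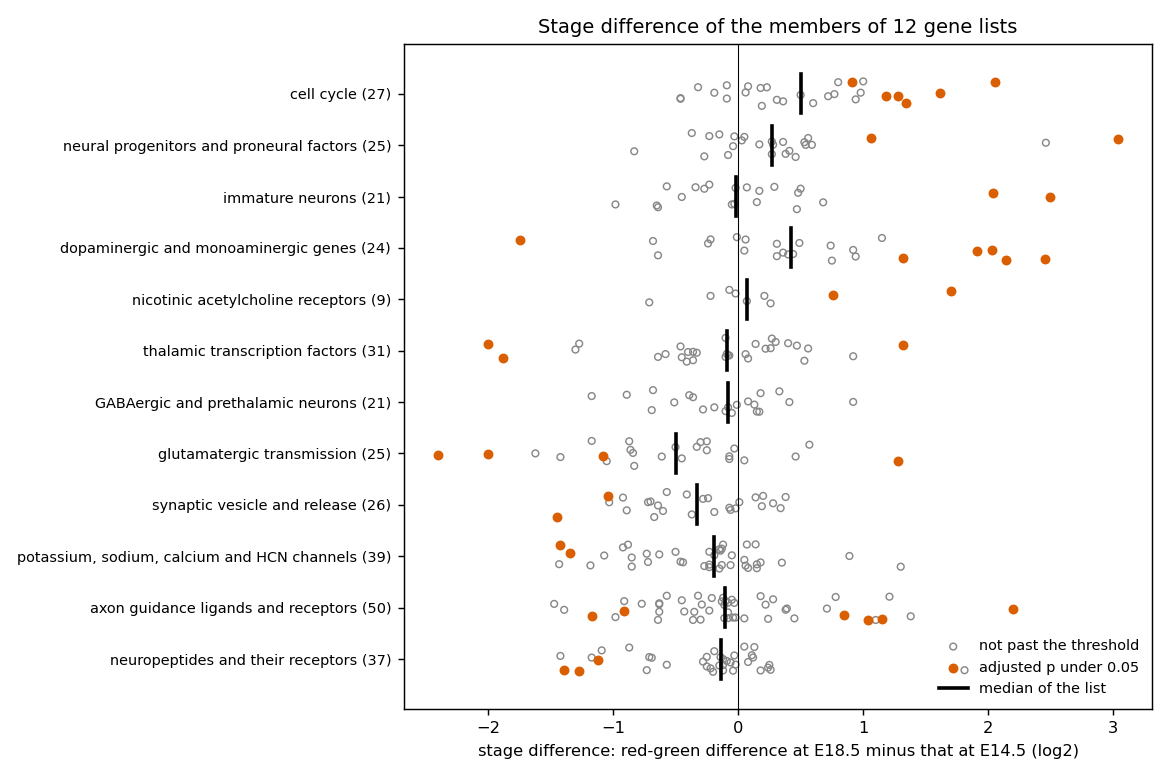
Stage difference (horizontal axis, log2) of every tested member of 12 gene lists, 1 row a list with its number of members tested. Filled points passed an adjusted p of 0.05, open points did not, and vertical bars are list medians. The cell cycle list has 6 filled points, all above 0, and the list of glutamatergic transmission has 3 below and 1 above 0.

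Among the other lists, the stage difference passed above 0 in 2 of 25 neural progenitor and proneural genes (Olig3 and Prom1), in 2 of 21 immature neuron genes (Nhlh1 and Btg2) and in 2 of 12 genes of the hypothalamus, pretectum and zona limitans (Barhl2 and Foxa1), each with 0 below. Habenular genes had 2 above 0 (Chrnb3 and Chrna6) and 1 below (Calb2) of 12 tested. Calcium-binding proteins had 2 below 0 of 14 (Calb2 and Necab1), cadherins and protocadherins 1 below of 25 (Cdh4), and retinoic acid genes 1 above of 15 (Aldh1a1). Immediate early and stress genes had 1 above 0 of 21, Btg2. In the list of GABAergic and prethalamic neurons, limma called 0 of 21, and 6 had an unadjusted p under 0.05. For all 16635 genes tested, the stage difference passed above 0 in 0.547% and below 0 in 0.505%, and 8.96% had an unadjusted p under 0.05.

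Of the markers of non-neuronal and cortical cells, erythroid genes apart, no member passed in the stage difference. Only 1.05% of all genes tested passed, so lists this short can hold 0 calls, and a change in these markers is not excluded. limma called 0 of 8 astrocyte, 0 of 7 oligodendrocyte lineage, 0 of 8 microglial, 0 of 8 endothelial and pericyte, and 0 of 8 meningeal and choroid plexus genes, and 0 of 5 cortical excitatory neuron genes. At an unadjusted p of 0.05, 1 astrocyte and 2 endothelial and pericyte genes passed, and none of the other 4 lists had any. Astrocyte genes averaged 6.02 to 6.41 in E18.5 red arrays and 5.92 to 5.99 in E18.5 green arrays, against 5.20 to 5.31 in E14.5 red arrays and 5.24 to 5.29 in E14.5 green arrays. Endothelial and pericyte genes averaged 5.37 to 5.54, 5.45 to 5.64, 4.76 to 4.82 and 4.70 to 4.72 in the same order of groups.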

How the data were processed

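Total RNA from sorted cells, 10 ng a sample, was amplified with a Nugen kit and hybridised to Affymetrix arrays, per the labels' protocols. The deposited values were, by their range of 4.15 to 13.16, log2 signals, 1 for each transcript cluster. Arrays were processed in Affymetrix Expression Console, per the submitters' processing notes, with version, algorithm and scaling across stages not given in the sources used here. The number of arrays limits precision, and no depth applies to array signals.

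Of 33794 transcript clusters, 23521 named 1 gene in the platform annotation, 1814 several and 8459 none, and 23328 of those naming 1 gene matched RefSeq GRCm38.p6 by Entrez identifier. For the 1082 of 22180 genes with several clusters, the one with the highest mean was used. A filter then removed genes whose mean was under 5.07, the lowest 25%, and left 16635.

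limma 3.58.1 in R 4.3.3 fitted a group-means model to all 15 arrays. Its moderated test was two-sided, with Benjamini-Hochberg adjustment over all genes tested and a threshold of 0.05. SEs and 95% intervals come from this model, in which the double-labelled arrays formed their own group and entered only the estimate of spread. Figures were drawn with matplotlib 3.10.9 in Python 3.11.15. The fit was tested on simulated data.

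Named were Gbx2, the 10 largest stage differences in each direction, up to 10 genes per class and direction, and up to 4 called or kept members of each list, without predicted genes and clones. 1 gene that this rule names is not reported here. The classes, lists and rule were chosen with earlier results of these data known, so that the dopaminergic and cell cycle lists are no independent evidence. Settings tried were joint quantile normalization, the 12 arrays alone, leaving out the narrow-range arrays, stage weights, another moderation, other filters, averaged clusters, a replicate block and leaving out each array. The labels call the arrays biological replicates and say no more of their source.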

Additional observations from a re-analysis of the deposited data

Results flagged for a closer look

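The red-green difference differed between E18.5 and E14.5, by limma's test of the difference itself, in 175 genes. Among the genes named here, the stage difference (red minus green at E18.5, minus red minus green at E14.5, log2) passed above 0 in Tuba1c (3.55), Olig3 (3.04), Nhlh1 (2.49), Aldh1a1 (2.45), Pou3f2 (2.32), Slit2 (2.20), Pantr1 (2.18), Jam2 (2.15), Slc6a3 (2.14), Top2a (2.05), Abcd2 (2.04), Btg2 (2.04), Th (2.03), Ube2c (2.01), Foxa1 (1.91), Chrnb3 (1.70), Ypel2 (1.66), Mki67 (1.61), Barhl2 (1.60), Ebf3 (1.32), Gsg1l (1.28), Ccnd2 (1.28), Cdk1 (1.18), Unc5c (1.15), Prom1 (1.06), Amotl1 (0.90), Ntn4 (0.85), Inpp4b (0.77) and Chrna6 (0.76).

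It passed below 0 in Calb2 (-3.09), Ripor2 (-2.45), Cacng3 (-2.40), Mast4 (-2.39), Necab1 (-2.24), Kitl (-2.11), Lrfn5 (-2.10), Grm8 (-2.0), Ldb2 (-2.0), Prox1 (-1.88), Rbfox1 (-1.77), Khdrbs3 (-1.75), Gabra2 (-1.59), Ablim3 (-1.57), Tnr (-1.49), Trpm3 (-1.48), Amph (-1.46), Syn2 (-1.45), Cdh4 (-1.43), Cacna1e (-1.42), Nmbr (-1.39), Cntn3 (-1.39), Hbb-y (-1.36), Kcnd2 (-1.34), Shtn1 (-1.32), Prkg1 (-1.29), Grpr (-1.27), Flrt1 (-1.17), Grp (-1.12), Grin2b (-1.08) and Pclo (-1.04).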

How the results depend on the processing

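No stage difference past the threshold in a named gene changed sign under any setting run, whereas some near 0 in kept genes, such as those of Hs6st3 and Zdhhc22, did. Of the 60 named genes past the threshold, 39 passed in all 12 fits that each left out 1 array. Across those 12 fits, the stage difference passed for 76 to 214 genes, with 9 to 18 kept, 0 to 2 changed in size, 16 to 32 gained, 55 to 170 lost and 1 to 9 reversed, and red and green differed in 51 to 100 genes at E18.5 and 247 to 739 at E14.5. The lowest counts of stage differences came without E14.5 green replicate 3 (76) and without E14.5 green replicate 2 (85), all of them among the 175. The count also fell by over 1.5 times without E18.5 green replicate 1 (109), 2 (105) or 3 (115), and without E14.5 red replicate 1 (114) or 2 (99).

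After joint quantile normalization 206 stage differences passed, 138 of them among the 175, and 8 genes were reversed. In that setting, 100 of the 134 lost, 23 of the 26 gained and 13 of the 17 kept genes stayed in their class. With the 12 arrays alone, 312 stage differences passed (139 above and 173 below 0), with 32 kept, 57 gained and 227 lost, and 181 genes at E18.5. Without the narrow-range arrays (replicate 1 of the red and of the double-labelled E18.5 cells), 486 passed, with 192 above and 294 below 0, and there were 56 kept, 4 changed in size, 69 gained, 359 lost and 20 reversed, with 213 genes at E18.5 and 1434 at E14.5. With 1 weight per stage (0.647 for E18.5 and 1.921 for E14.5), 17 were gained, and 44 genes passed at E18.5 and 1703 at E14.5. Of the genes in the main classes, 15 of the 26 gained, 113 of the 134 lost, 10 of the 17 kept and 2 of the 5 reversed stayed in their class. With the lowest 50% of genes left out, 60 stage differences passed above and 75 below 0. The causes of these changes were not tested.

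Replicate numbers were shared by red and green arrays of a stage. Deviations of same-numbered arrays correlated at 0.46, 0.41 and 0.06 at E18.5 and at 0.07, 0.22 and 0.27 at E14.5. Differently numbered arrays correlated between -0.42 and 0.21 at E18.5 and between -0.26 and 0.03 at E14.5. The labels do not say whether a number stands for a shared source, and these values do not settle it. The main fit did not take the numbers as pairs. With a replicate block, 343 stage differences passed (147 above and 196 below 0), with 43 kept, 3 changed in size, 57 gained, 246 lost and 12 reversed, and 234 genes at E18.5 and 842 at E14.5.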
